A study of Homo sapiens with 8 samples.

Results

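A set of 49 protein-coding genes had almost no transcript in untreated MEG-01 cells and a clear one after phorbol 12-myristate 13-acetate (PMA). They were selected on TPM, a length-corrected share of the transcripts of each library. The rule required at most 0.1 TPM in both untreated libraries and at least 1 TPM in both PMA libraries. It selected 49 of 20004 protein-coding genes, or 0.728% of the 6734 that met the untreated limit. The difference between untreated and PMA libraries is therefore how the genes were chosen and was given no test. MEG-01 is an established human megakaryoblast line, and its mRNA was sequenced in 4 groups of 2 libraries. Untreated cells formed the first group and cells with 100 nM PMA for 48 h the second. The third received 100 nM PMA with 20 µM Ceefourin 2 for 48 h, and the fourth Ceefourin 2 without PMA for 48 h, at a dose not given in the sources used here. All groups are 1 cell line, and the labels do not say that the libraries of a group came from separate cultures. The p values therefore measure only the spread between these libraries, which may be technical.

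PMA is a phorbol ester that stands in for diacylglycerol and activates protein kinase C, which signals through the MAP kinases to AP-1, NF-kB and other transcription factors. In megakaryoblastic lines it stops division and starts megakaryocytic maturation, in which the cells enlarge and make platelet receptors and granule proteins. Ceefourin 2 inhibits ABCC4, an ATP-driven pump that exports cyclic nucleotides and is found in platelet granules and plasma membrane. The study asked how transcripts of PMA-treated cells differ with and without this inhibitor.

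The promoters of 5 members are shown because the results return to these genes and the windows hold matches to a GATA site, an AP-1 site or both. GATA factors are the lineage factors of megakaryocytes, and AP-1 is the classical phorbol ester response factor. RefSeq promoter windows on GRCh38.p14, each 300 bases long with 250 before and 50 after the start, matched 35 of the 49 members. Letters are given 5′ to 3′ on the strand of the gene, and capitals mark TGANTCA (AP-1) and AGATAA or its reverse complement (GATA).
XIRP1 (chr3:39192546-39192845, minus strand): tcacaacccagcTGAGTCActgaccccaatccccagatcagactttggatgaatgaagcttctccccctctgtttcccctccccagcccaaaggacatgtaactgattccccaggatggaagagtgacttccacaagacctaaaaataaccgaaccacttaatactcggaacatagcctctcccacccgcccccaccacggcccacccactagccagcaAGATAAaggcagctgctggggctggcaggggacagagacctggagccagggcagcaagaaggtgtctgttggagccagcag
EGF (chr4:109912633-109912932, plus strand): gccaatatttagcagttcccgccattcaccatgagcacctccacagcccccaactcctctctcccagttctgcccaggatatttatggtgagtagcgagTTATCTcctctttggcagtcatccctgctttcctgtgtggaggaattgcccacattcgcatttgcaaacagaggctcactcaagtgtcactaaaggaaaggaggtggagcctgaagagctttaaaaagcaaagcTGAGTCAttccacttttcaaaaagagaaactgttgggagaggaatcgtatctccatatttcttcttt
CCL7 (chr17:34269971-34270270, plus strand): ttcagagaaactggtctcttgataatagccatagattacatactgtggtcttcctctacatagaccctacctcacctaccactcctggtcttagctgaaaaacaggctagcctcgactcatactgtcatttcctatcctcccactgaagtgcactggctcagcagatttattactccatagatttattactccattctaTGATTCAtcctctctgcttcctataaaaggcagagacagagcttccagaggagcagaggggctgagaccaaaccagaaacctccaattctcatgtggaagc
PPBP (chr4:73988141-73988440, minus strand): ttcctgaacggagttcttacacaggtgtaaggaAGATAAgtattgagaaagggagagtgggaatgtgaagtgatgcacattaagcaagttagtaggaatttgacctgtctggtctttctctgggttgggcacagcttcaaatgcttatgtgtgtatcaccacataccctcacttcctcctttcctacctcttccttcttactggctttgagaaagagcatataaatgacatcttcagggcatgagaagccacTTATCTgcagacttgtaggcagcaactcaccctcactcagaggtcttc
CLEC1B (chr12:9999072-9999371, minus strand): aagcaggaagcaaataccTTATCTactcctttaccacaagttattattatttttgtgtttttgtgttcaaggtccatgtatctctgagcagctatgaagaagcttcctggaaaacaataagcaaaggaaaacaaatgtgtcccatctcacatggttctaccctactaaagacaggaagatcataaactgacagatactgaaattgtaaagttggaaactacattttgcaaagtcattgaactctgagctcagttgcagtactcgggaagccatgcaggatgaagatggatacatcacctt
In XIRP1 the AP-1 match began 238 bases before the start and the GATA match 31 bases before it. EGF carried an AP-1 match 17 bases before its start and a GATA match 151 bases before it. The AP-1 match of CCL7 lay 51 bases before the start. It reads TGATTCA, unlike the TGAGTCA of XIRP1 and EGF, and passes because the pattern leaves the middle letter free. PPBP had GATA matches from 217 bases before the start and from base 3 after it. CLEC1B had 1 from 232 bases before the start. The RefSeq start of CLEC1B lies inside the gene span given below, which is from another annotation.

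Searched on both strands, AGATAA was in 25.7% of the members' windows (9 of 35), beside 7.58% of 15842 protein-coding promoters and 12.5% of 4597 promoters of genes that were silent in untreated cells. The 9 members were TCHH, XIRP1, PPBP, EGF, MLIP, CLEC1B, AQP2, KRT79 and CCL1. TGANTCA was in 14.3% (5 of 35: TCHH, XIRP1, EGF, PAEP and CCL7), beside 5.75% of all and 8.68% of silent promoters. TCHH, XIRP1 and EGF held both. The NF-kB consensus was in 17.1% of member windows, 12.3% of all and 11.1% of silent promoters. The CArG box of serum response factor was in 5.71%, 1.21% and 1.52%, and TATAAA, read on the strand of the gene only, in 20.0%, 6.91% and 13.4%. CCGGAAG, an ETS site, was in 2.86% of member windows and 14.2% of all promoters, but in 3.52% of silent ones, close to the members. GCGTGGGCG, an EGR site, was in 2.86%, 1.09% and 0.653%. TGACGTCA, the cyclic AMP response element, and TTGCGTG, an aryl hydrocarbon receptor site, were in none of the 35 windows, beside 2.59% and 1.40% of all and 1.22% and 0.914% of silent promoters. Members' windows were also poor in CpG, with a median observed over expected ratio of 0.333 beside 0.763 in all promoters and 0.356 in silent ones. These are matches of letters in a fixed window, and the shares of members rest on few genes. For GATA only AGATAA was searched, so other forms of the site were not counted.

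**Figure D1:**
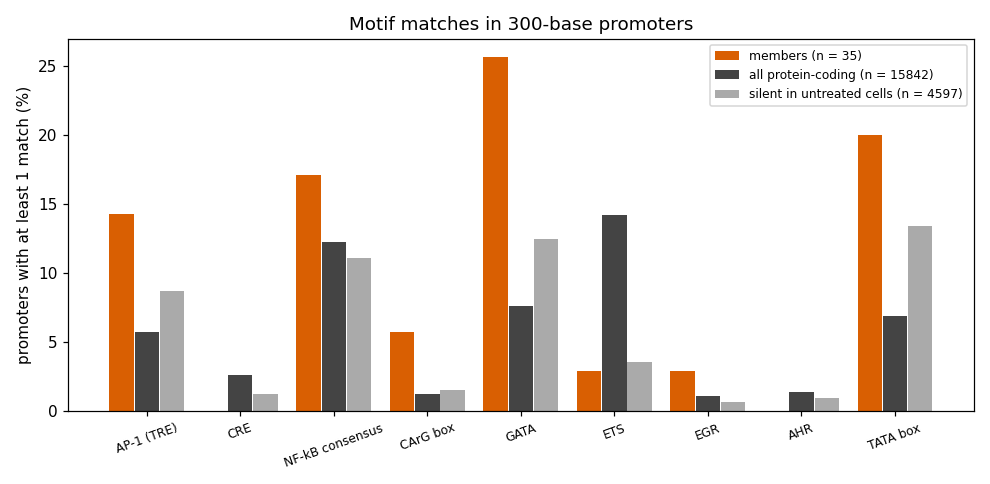
Share of promoter windows, in percent on the y axis, that hold at least 1 match to each motif on the x axis, with bars for the 35 members matched, for all 15842 protein-coding promoters and for 4597 promoters of genes silent in untreated cells. GATA matches (AGATAA only) were in 25.7% of member windows, 12.5% of silent and 7.58% of all promoters, and ETS matches in 2.86%, 3.52% and 14.2%.

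The 8 libraries held 44430292 to 89950886 expected counts each. Mitochondrially encoded genes took 9.61% and 4.53% of counts in the 2 PMA libraries, 8.32% and 4.94% with PMA plus Ceefourin 2, and 2.55% to 3.94% in the 4 libraries without PMA. The labelled lineage was checked on 12 megakaryocyte markers. Their summed level was 367.8 to 375.4 TPM in untreated cells, 1191 to 1350 TPM with PMA, 1265 to 1353 TPM with PMA plus Ceefourin 2 and 465.5 to 541.1 TPM with Ceefourin 2 alone. PF4, the platelet factor 4 chemokine, was at or below 0.1 TPM in all 8 libraries. Marker lists of other cells also differed between groups. The 8 erythroid markers summed to more than the megakaryocyte markers in each group, so the check does not single out the megakaryocyte lineage. Their sum was 9143 to 10109 TPM untreated and 31613 to 38112 TPM with PMA. It was 26086 to 33133 TPM with PMA plus Ceefourin 2 and 4477 to 4870 TPM with Ceefourin 2 alone. The 11 T and NK markers summed to 5.59 to 6.08 TPM untreated, 138.0 to 300.2 TPM with PMA and 446.4 to 486.9 TPM with PMA plus Ceefourin 2, with CD3E, CD2, CD7, GNLY and KLRD1 at or below 0.1 TPM in all libraries. The 8 fibroblast markers summed to 2.21 to 2.33, 58.9 to 65.6 and 113.9 to 119.5 TPM in the same order, with COL1A2, COL3A1 and FAP at or below 0.1 TPM. The 7 mast cell and basophil markers summed to 319.4 to 379.0, 605.5 to 677.4 and 264.3 to 275.5 TPM, with CMA1 at or below 0.1 TPM. Neuron and glia markers, of which MAP2 is 1, summed to 2.34 to 2.36, 18.4 to 21.0 and 17.7 to 18.0 TPM, with 4 of 7 at or below 0.1 TPM. The macrophage markers CD163, MRC1, MARCO and FCN1 and the osteoclast marker CALCR were at or below 0.1 TPM throughout. The part of other cell types in the results was not tested. In bulk RNA of this kind, fewer cells of a type and less RNA per cell cannot be told apart.

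In untreated cells the members' mean levels ran from 0 to 0.075 TPM with a median of 0.02 TPM. The expected count was 0 in both untreated libraries for 14 of the 49. With PMA the means ran from 1.08 to 29.97 TPM with a median of 2.13 TPM. Only 5 members had a mean of 10 TPM or more, and 22 had a mean under 2 TPM. The 2 PMA libraries lay within a factor of 1.5 of each other for 42 members, and the first library was the higher for 33. Just inside the PMA limit were RGS4 at 1.03 and 1.13 TPM, TNS3 at 1.17 and 1.14 TPM and PAEP at 1.48 and 1.07 TPM. LOXL4 at 0.99 and 1.23 TPM, CHRNE at 1.05 and 0.95 TPM and MAML2 at 1.93 and 0.95 TPM lay just outside. Just inside the untreated limit were TAFA3 at 0.1 and 0.05 TPM, LY6G6D at 0 and 0.09 TPM and PI16 at 0.02 and 0.09 TPM. AVPR1A, at 0.11 and 0.06 TPM untreated and 3.76 and 3.28 TPM with PMA, missed the set by that limit. HDAC9 and LOXL2 missed it in the same way, with 0.11 and 0.02 TPM and with 0.09 and 0.11 TPM untreated.

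**Figure D2:**
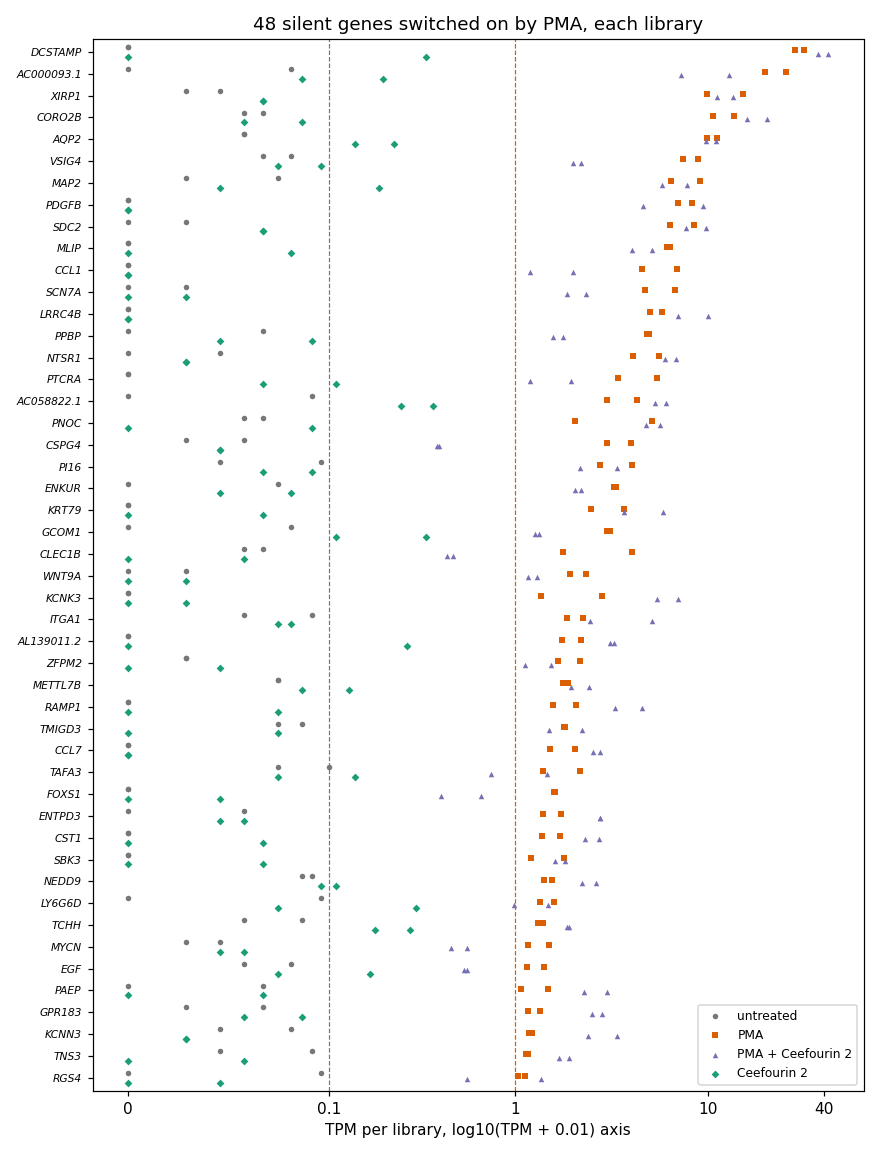
Level of 48 of the 49 members in each of the 8 libraries, in TPM on the x axis, which is logarithmic after adding 0.01, with members on the y axis ordered by mean level in PMA, 1 point per library, and dashed lines at the limits of 0.1 and 1 TPM. Squares (PMA) and triangles (PMA plus Ceefourin 2) lie to the right of circles (untreated) and diamonds (Ceefourin 2 alone) in each row, and 8 members have a triangle left of 1 TPM.

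The 4 libraries with Ceefourin 2 played no part in the choice of members. PMA plus Ceefourin 2 against Ceefourin 2 alone is the same PMA treatment in the presence of the inhibitor. All 49 members were higher with PMA in this comparison by edgeR's quasi-likelihood test, with Benjamini-Hochberg adjusted p from 1.28e-06 to 0.00488 (PMA plus Ceefourin 2 against Ceefourin 2 alone, 28.0% of 17314 tested genes called higher). The median log2 fold change was 6.50 over the members and 0.02 over all tested genes. It was 6.20 with the 4 members that had no count in Ceefourin 2 alone set at their lower bound. For each member the lower PMA plus Ceefourin 2 library lay above the higher library of Ceefourin 2 alone. The share of all tested genes with such a separation was not counted, so it is given as a description only. Summed over the members, the level was 1.17 to 1.18 TPM in untreated cells, 212.6 to 233.1 TPM with PMA, 210.8 to 228.2 TPM with PMA plus Ceefourin 2 and 2.79 to 3.28 TPM with Ceefourin 2 alone. The summed level of the 2 PMA groups overlapped.

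By the same limits as in the rule, 41 of 49 members were at 1 TPM or more in both libraries of PMA plus Ceefourin 2, and 35 were at 0.1 TPM or less in both libraries of Ceefourin 2 alone. Both held for 30 members. None of the 49 exceeded 1 TPM in a library of Ceefourin 2 alone. Applied to these 4 libraries in place of the untreated and PMA ones, a choice made after the values were seen, the limits select 61 genes, or 0.305% of the 20004. The 30 shared genes are 61.2% of the 49 and 49.2% of the 61.

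Of the secreted ligands, PDGFB, the B chain of platelet-derived growth factor and a cargo of platelet alpha granules (chr22:39223359-39244751), was at 0 TPM in both untreated libraries. It was at 7.02 and 8.3 TPM with PMA, 4.64 and 9.4 TPM with PMA plus Ceefourin 2, and 0 TPM in both libraries of Ceefourin 2 alone. With Ceefourin 2 present, PMA libraries were at least 865-fold higher, taking 3 counts over both libraries as the floor of Ceefourin 2 alone, and at least 440.1-fold without the second library of PMA plus Ceefourin 2. The 2 PMA groups overlapped for this gene, and so did they for PNOC, the precursor of the peptide nociceptin, which was at 5.12 and 2.06 TPM with PMA and 5.65 and 4.79 TPM with PMA plus Ceefourin 2.

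PPBP, the precursor of the platelet chemokine CXCL7 whose promoter is printed above (gene at chr4:73987038-73988197), was at 0 and 0.04 TPM untreated. Its level was 4.83 and 4.93 TPM with PMA, 1.58 and 1.78 TPM with PMA plus Ceefourin 2, and 0.08 and 0.02 TPM with Ceefourin 2 alone. Both inhibitor libraries were thus below both PMA libraries, but the difference did not pass the test (log2 fold change -1.51, SE 0.29, edgeR adjusted p = 0.0501). CCL1, a chemokine for CCR8-bearing cells (chr17:34360328-34363231), had no count in any of the 4 libraries without PMA. It was at 6.9 and 4.58 TPM with PMA and 2.01 and 1.19 TPM with PMA plus Ceefourin 2, groups that did not overlap (log2 fold change -1.87, SE 0.39, edgeR adjusted p = 0.0953). CCL7, a chemokine for monocytes from the same chromosome (chr17:34270221-34272242), likewise had no count without PMA. It lay on the other side, at 2.06 and 1.52 TPM with PMA and 2.55 and 2.77 TPM with the inhibitor added, and was not called (edgeR adjusted p = 0.469). Against Ceefourin 2 alone, CCL1 was at least 23.3-fold and CCL7 at least 64.4-fold higher.

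EGF, epidermal growth factor, also a platelet granule cargo, was at 0.06 and 0.03 TPM untreated and 1.15 and 1.41 TPM with PMA. With PMA plus Ceefourin 2 it was at 0.54 and 0.56 TPM, below 1 TPM in both libraries, and with Ceefourin 2 alone at 0.17 and 0.05 TPM. The 2 PMA groups did not overlap, and the difference was not called (log2 fold change -0.77, edgeR adjusted p = 0.377). WNT9A, a Wnt ligand, was at 1.92 and 2.34 TPM with PMA and 1.16 and 1.3 TPM with PMA plus Ceefourin 2. TAFA3, a small secreted protein, was at 2.18 and 1.4 TPM and then 0.75 and 1.47 TPM. None of the 8 secreted growth factors, chemokines and peptides was called between the 2 PMA groups. Of all tested genes, 0.918% were called higher and 0.913% lower, so a lack of calls among 8 genes does not set them apart.

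Of the receptors, DCSTAMP was the most abundant member. It encodes a membrane protein needed for the fusion of osteoclast precursors. Its level was 0 TPM in both untreated libraries, 31.6 and 28.33 TPM with PMA, 42.07 and 37.32 TPM with PMA plus Ceefourin 2, and 0 and 0.34 TPM with Ceefourin 2 alone. Both inhibitor libraries were above both PMA libraries, without a call (log2 fold change 0.36, SE 0.27, edgeR adjusted p = 0.663). The summed level of 10 osteoclast markers, of which DCSTAMP is 1, was 48.2 to 52.2 TPM with PMA and 67.6 to 76.2 TPM with PMA plus Ceefourin 2.

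VSIG4, a complement receptor of resident macrophages (chrX:66021738-66040125), was at 0.06 and 0.04 TPM untreated and 7.47 and 8.94 TPM with PMA. It fell to 2.0 and 2.2 TPM with PMA plus Ceefourin 2 and was at 0.09 and 0.05 TPM with Ceefourin 2 alone. The groups did not overlap (log2 fold change -1.92, SE 0.19, edgeR adjusted p = 0.00501). Most fits that left out 1 library called fewer of all tested genes between the PMA groups than the fit of all libraries. A call lost in such a fit, here and below, is therefore not particular to the gene. The call was lost without the second PMA library (adjusted p = 0.0527) or the first library of PMA plus Ceefourin 2 (0.0661). The 12 monocyte and macrophage markers summed to 421.6 to 471.0 TPM with PMA and 383.3 to 423.1 TPM with PMA plus Ceefourin 2, and the macrophage markers CD163, MRC1 and MARCO were at or below 0.1 TPM.

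CLEC1B, the platelet receptor for podoplanin (chr12:9985642-10013424), was at 0.04 and 0.03 TPM untreated and 1.77 and 4.04 TPM with PMA, libraries that differed more than for most members. It fell to 0.47 and 0.44 TPM with PMA plus Ceefourin 2 and was at 0 and 0.03 TPM with Ceefourin 2 alone (log2 fold change -2.63, SE 0.47, edgeR adjusted p = 0.0391). The call was lost without the first (adjusted p = 0.0621) or second untreated library (0.0617), without the second PMA library (0.235, where the log2 fold change was -1.91), and without the first (0.217) or second (0.229) library of PMA plus Ceefourin 2. The remaining receptors and regulators were not called. NTSR1, the neurotensin receptor, was at 5.61 and 4.12 TPM with PMA and 5.98 and 6.81 TPM with the inhibitor added.

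GPR183, an oxysterol receptor that guides B cells, was at 1.35 and 1.17 TPM with PMA and 2.83 and 2.52 TPM with PMA plus Ceefourin 2 (log2 fold change 1.10, edgeR adjusted p = 0.083). RAMP1, the accessory subunit of the calcitonin gene-related peptide receptor, was at 2.07 and 1.57 TPM and then 3.32 and 4.55 TPM. PTCRA, the pre-T-cell receptor alpha chain, went the other way, at 3.42 and 5.45 TPM and then 1.19 and 1.96 TPM (log2 fold change -1.43, edgeR adjusted p = 0.149). For these 3 genes the PMA groups did not overlap and the test was not passed. RGS4, which shortens G protein signals, and LY6G6D, a membrane-anchored Ly6 protein, had overlapping groups.

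Channels held both members that rose with the inhibitor. KCNK3, an acid-sensitive potassium leak channel (chr2:26692690-26733420), was at 0 TPM in both untreated libraries and 2.83 and 1.36 TPM with PMA. It rose to 5.45 and 6.98 TPM with PMA plus Ceefourin 2 and was at 0.01 and 0 TPM with Ceefourin 2 alone (log2 fold change 1.57, SE 0.28, edgeR adjusted p = 0.0481, close to the limit of 0.05). Leaving out the first PMA library kept this call (adjusted p = 0.0441), and leaving out any other single library ended it. The adjusted p was then 0.0534 without either untreated library, 0.0588 and 0.05001 without the first and second library of Ceefourin 2 alone, 0.183 without the second PMA library, and 0.182 and 0.23 without the first and second library of PMA plus Ceefourin 2.

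KCNN3, a small-conductance calcium-activated potassium channel (chr1:154697455-154870280), was at 0.06 and 0.02 TPM untreated and 1.22 and 1.18 TPM with PMA. It rose to 3.37 and 2.39 TPM with PMA plus Ceefourin 2 and was at 0.01 TPM in both libraries of Ceefourin 2 alone (log2 fold change 1.40, SE 0.19, edgeR adjusted p = 0.0154). The call was lost without the first (adjusted p = 0.0698) or second (0.151) PMA library and without the first (0.14) or second (0.0607) library of PMA plus Ceefourin 2. SCN7A, a sodium channel that senses sodium rather than voltage (chr2:166403573-166494326), was at 0 and 0.01 TPM untreated and 6.75 and 4.71 TPM with PMA. It fell to 2.35 and 1.86 TPM with PMA plus Ceefourin 2 and was at 0.01 and 0 TPM with Ceefourin 2 alone (log2 fold change -1.46, SE 0.25, edgeR adjusted p = 0.0349). Its call was lost without the first (adjusted p = 0.194) or second (0.0916) PMA library and without the first (0.164) or second (0.219) library of PMA plus Ceefourin 2.

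AQP2, the vasopressin-regulated water channel of the kidney collecting duct (chr12:49950741-49958881), was at 0.03 TPM in both untreated libraries. It was at 11.17 and 9.9 TPM with PMA, 9.79 and 11 TPM with PMA plus Ceefourin 2, and 0.14 and 0.23 TPM with Ceefourin 2 alone. The PMA groups overlapped for AQP2 (log2 fold change 0.01, SE 0.13). ENTPD3, an ectoenzyme that splits extracellular ATP, was at 1.74 and 1.39 TPM with PMA and 2.75 and 2.76 TPM with the inhibitor added, and was not called.

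CSPG4 gave the largest difference between the 2 PMA groups. It encodes the NG2 chondroitin sulfate proteoglycan, a surface protein of pericytes and oligodendrocyte precursors (chr15:75674322-75712848). Its level was 0.03 and 0.01 TPM untreated, 4.0 and 3.01 TPM with PMA, 0.39 and 0.4 TPM with PMA plus Ceefourin 2, and 0.02 TPM in both libraries of Ceefourin 2 alone. CSPG4 fell by 3.13 on the log2 scale (SE 0.25, edgeR adjusted p = 0.00275), and the call held in all 8 fits that left out 1 library, with adjusted p up to 0.0458. With PMA plus Ceefourin 2 it was still 23.6-fold above Ceefourin 2 alone, from 394 counts over 2 libraries against 16.

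The other matrix and adhesion members were not called. SDC2, the heparan sulfate proteoglycan syndecan 2, was at 8.51 and 6.34 TPM with PMA and 7.7 and 9.84 TPM with PMA plus Ceefourin 2. ITGA1, the integrin chain that pairs with beta 1 to bind collagen, was at 2.26 and 1.86 TPM and then 5.15 and 2.46 TPM. LRRC4B, a synaptic adhesion protein with no count in the 4 libraries without PMA, was at 5.81 and 5.02 TPM and then 7.03 and 10.05 TPM. It was at least 948-fold higher with PMA plus Ceefourin 2 than with Ceefourin 2 alone. TNS3 and NEDD9, proteins of focal adhesions, were also higher in both inhibitor libraries than in both PMA libraries, at 1.9 and 1.7 TPM and at 2.23 and 2.63 TPM.

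None of the 6 cytoskeletal and structural members was called between the 2 PMA groups, beside 0.918% of all tested genes called higher and 0.913% lower. XIRP1, an actin-binding protein of striated muscle (chr3:39183210-39192596), was at 0.01 and 0.02 TPM untreated, 15.28 and 9.92 TPM with PMA, 13.53 and 11.14 TPM with PMA plus Ceefourin 2, and 0.04 TPM in both libraries of Ceefourin 2 alone. CORO2B, an actin-binding coronin (chr15:68578969-68727806), was at 13.66 and 10.58 TPM with PMA and 15.9 and 20.34 TPM with PMA plus Ceefourin 2. MAP2, the microtubule-associated protein of dendrites (chr2:209424058-209734118), was at 9.15 and 6.48 TPM and then 7.78 and 5.77 TPM. The groups overlapped for XIRP1 and MAP2 and not for CORO2B (log2 fold change 0.60, edgeR adjusted p = 0.178). Ratios of mean TPM with the inhibitor to mean TPM without it ran from 0.737 for MLIP, a lamin-interacting muscle protein, to 1.55 for KRT79, a keratin of sebaceous glands.

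The 3 transcription regulators were lower in both inhibitor libraries than in both PMA libraries, as were 23.0% of all tested genes. MYCN, the neuronal MYC family member (chr2:15940564-15947007), was at 0.02 and 0.01 TPM untreated and 1.16 and 1.5 TPM with PMA. It fell to 0.56 and 0.46 TPM with PMA plus Ceefourin 2 and was at 0.03 and 0.02 TPM with Ceefourin 2 alone (log2 fold change -1.26, SE 0.23, edgeR adjusted p = 0.0443). This call was lost in each of the 8 fits that left out 1 library, with adjusted p from 0.0518 without the second library of Ceefourin 2 alone to 0.277 without the second PMA library. FOXS1, a forkhead factor, was at 1.61 and 1.6 TPM and then 0.41 and 0.66 TPM (edgeR adjusted p = 0.121), and ZFPM2, a GATA cofactor, was at 2.18 and 1.67 TPM and then 1.13 and 1.53 TPM. Neither was called.

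Among secreted inhibitors and carriers, CST1, a cystatin that blocks cysteine proteases, was at 1.72 and 1.38 TPM with PMA and 2.32 and 2.72 TPM with PMA plus Ceefourin 2. PAEP, the lipocalin glycodelin, was at 1.48 and 1.07 TPM and then 2.99 and 2.28 TPM (log2 fold change 1.15, edgeR adjusted p = 0.254). PI16, a peptidase inhibitor, was at 4.04 and 2.77 TPM and then 3.37 and 2.18 TPM. No gene of this group was called, beside 0.918% of all tested genes called higher and 0.913% lower.

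**Figure D3:**
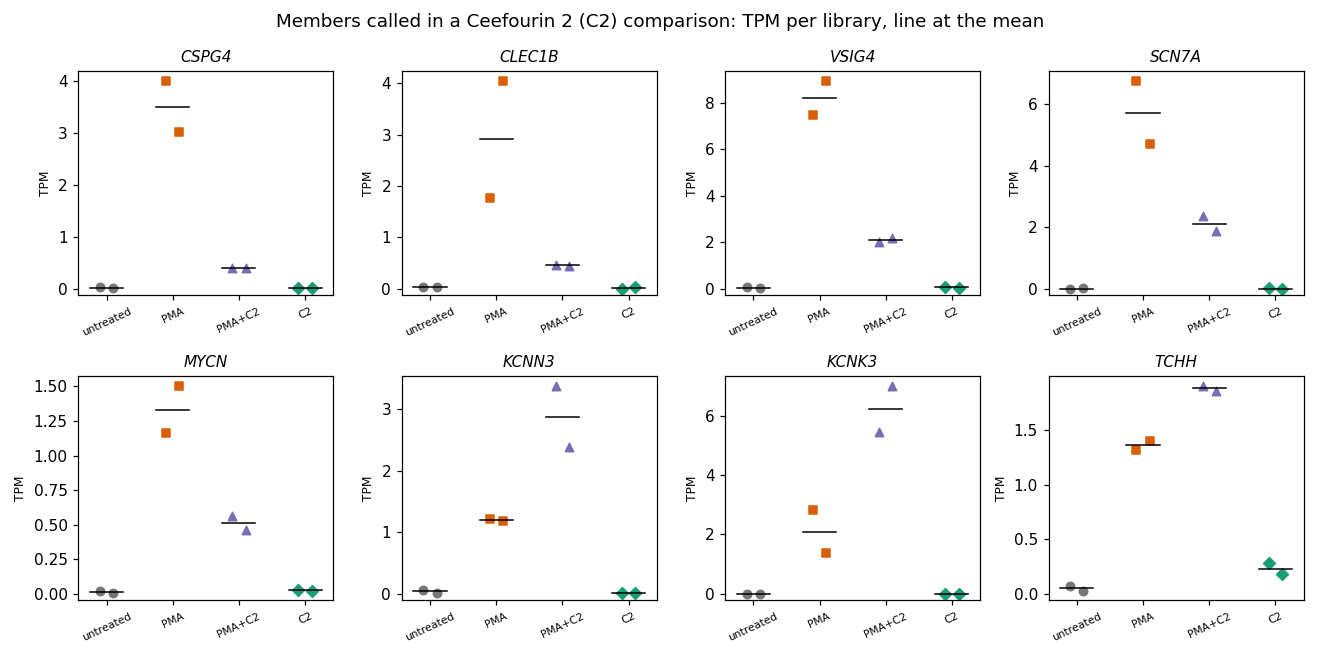
Level in TPM (linear y axis, own range in each panel) by group on the x axis, with 1 point per library and a line at the mean, for the 7 members called between PMA plus Ceefourin 2 and PMA and for TCHH, called between Ceefourin 2 alone and untreated. CSPG4, CLEC1B, VSIG4, SCN7A and MYCN sit lower and KCNN3 and KCNK3 higher with the inhibitor, and all 7 stay above Ceefourin 2 alone.

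Taking the 49 members at once, PMA plus Ceefourin 2 against PMA gave 2 members called higher, or 4.08% (PMA plus Ceefourin 2 against PMA, 0.918% of 17314 tested genes called higher). It gave 5 called lower, or 10.2%, beside 0.913% of tested genes. The other 42 were not called, and 25 had an unadjusted p under 0.05. The PMA libraries were used to choose the members, so these counts are read as a description. The median log2 fold change was 0.17 over the members and 0.00 over all tested genes, and it ran from -3.13 to 1.57. The ratio of mean TPM had a median of 1.04, from 0.113 to 2.97, and was under 0.5 for 12 members and over 2 for 5. Both inhibitor libraries were below both PMA libraries for 16 members, beside 23.0% of all tested genes, and above them for 19, beside 20.3%. The mitochondrial share was highest in the first library of both PMA groups. With each of those groups represented by its second library alone, a setting chosen after the data were seen, each PMA group is 1 library, and edgeR called 1 of all tested genes between them and none of the 49 members (18 had an unadjusted p under 0.05). That count therefore says nothing about the stability of the 7 calls. Their log2 fold changes in this setting were -2.87 for CSPG4, -3.14 for CLEC1B, -1.90 for VSIG4, -1.32 for SCN7A, -1.42 for MYCN, 1.36 for KCNN3 and 2.18 for KCNK3. All 7 kept their direction, and the value of KCNK3 was 2.18 here beside 1.57 in all libraries. All 49 members were still called against Ceefourin 2 alone. The part of the mitochondrial share in the 7 calls was not tested.

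**Figure D4:**
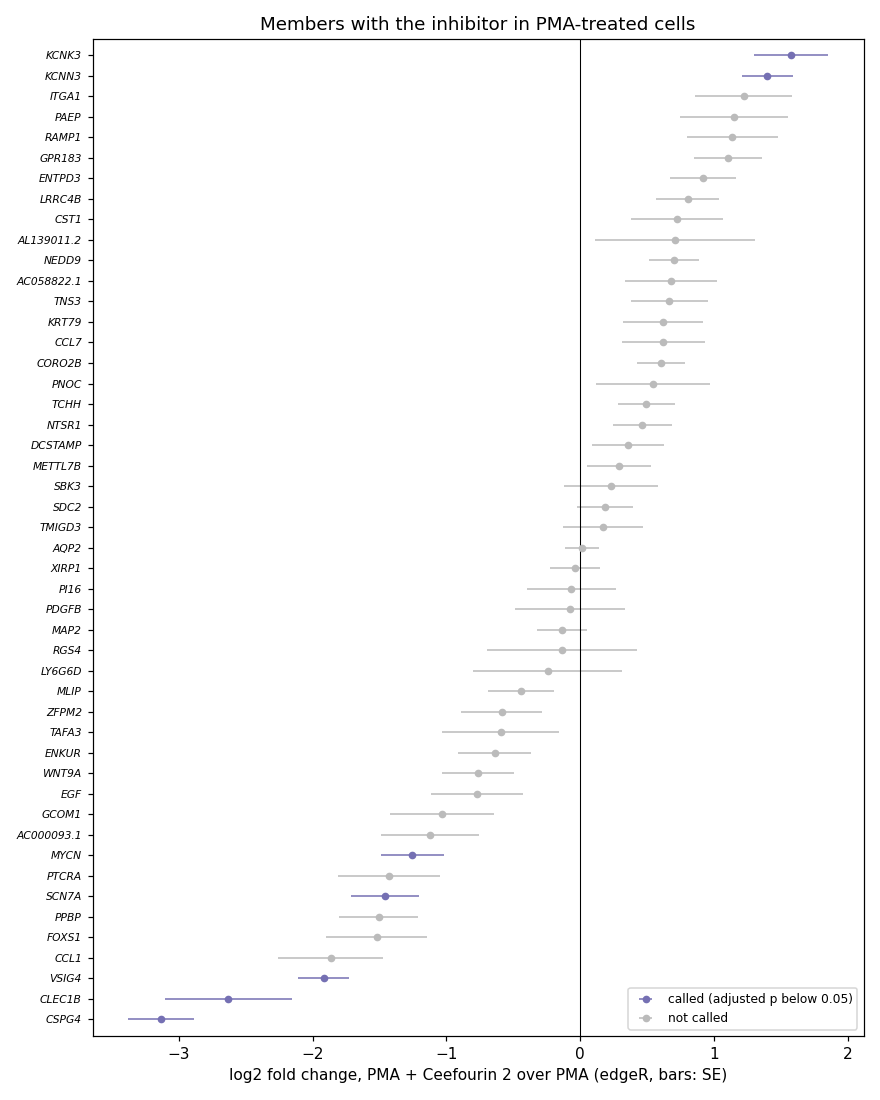
Log2 fold change of PMA plus Ceefourin 2 against PMA for 48 of the 49 members, on the x axis with bars for its standard error and members on the y axis ordered by value. The 5 members called lower lie between -3.13 and -1.26, the 2 called higher lie at 1.40 and 1.57, and the other 41 shown did not pass the test.

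Ceefourin 2 alone brought no member to 1 TPM. The means ran from 0 to 0.31 TPM with a median of 0.04 TPM, beside 0.02 TPM in untreated cells, and the summed levels given above did not overlap. TCHH, the trichohyalin of hair follicles (chr1:152106317-152115454), was the only member called by edgeR (Ceefourin 2 alone against untreated, 0.959% of 17314 tested genes called higher, beside 2.04% of members). It was at 0.07 and 0.03 TPM untreated and 0.28 and 0.18 TPM with Ceefourin 2 alone, from 27 and 145 counts (log2 fold change 2.19, SE 0.32, edgeR adjusted p = 0.0192). With PMA it was at 1.32 and 1.4 TPM and with PMA plus Ceefourin 2 at 1.9 and 1.86 TPM. The call was lost without the first (adjusted p = 0.0642) or second (0.136) untreated library and without the first library of Ceefourin 2 alone (0.0637). The untreated libraries were chosen to be low, so a difference upward from them is partly set by the choice. Most members had few counts in both groups and passed the filter on low counts through the libraries with PMA. That left little room for a call, so the share of members called is not comparable with that of all genes. AQP2 came next, at an edgeR adjusted p of 0.0523, and 5 members had an unadjusted p under 0.05. PDGFB, CCL1, CCL7 and LRRC4B had no count in any of the 4 libraries without PMA.

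Counts in Ceefourin 2 alone set how closely the response to PMA in the inhibitor's presence can be sized. Among the 28 members with over 3 counts there, the ratio of library-scaled counts (CPM) ran from 9.09 for EGF to 586 for XIRP1 with a median of 50.1. EGF had 24 and 8 counts in the 2 libraries of Ceefourin 2 alone, and its ratio was 17.9 without the first. The ratio was 471 for CORO2B, 75.7 for AQP2 and 10.2 for TCHH. DCSTAMP had a ratio of 545, but its 7 counts were all in the second library of Ceefourin 2 alone, and against that library the ratio was 268. A further 17 members had 1 to 3 counts. KCNK3 had a ratio of 3381 (95% interval 606 to 133565) from 1 count, in the first library of Ceefourin 2 alone, and 1719 against that library, and NTSR1 a ratio of 1437 (397 to 11869) from 2. These intervals and the lower bounds cover counting error only.

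Members fell into several of 13 gene lists. The lists were chosen with earlier results of these data known, so the shares below describe the set and are no independent support for a theme. Platelet and megakaryocyte proteins had 4 members (PDGFB, PPBP, CLEC1B and EGF) among the 14 of its 55 measured genes that were silent in untreated cells, or 28.6% beside 0.728% of all silent genes. Of those 4, CLEC1B fell with the inhibitor and the other 3 were not called. Growth factors had 3 of 59 silent genes, cytokines and chemokines 2 of 63 (CCL1 and CCL7), monocyte, macrophage and osteoclast genes 2 of 40 (DCSTAMP and VSIG4), matrix genes 3 of 89 (SDC2, CSPG4 and ITGA1) and ion channels and transporters 4 of 123. Single members came from proteases and their inhibitors (1 of 73) and synaptic adhesion genes (1 of 99), and 2 each from epithelial genes (of 101) and from G protein-coupled receptors (of 124). No member came from the 9 silent AP-1, EGR and MAPK feedback genes, the 42 silent lymphoid genes or the 17 silent interferon and complement genes. At the 0.728% of all silent genes, lists of this size would mostly hold none, so these absences do not set the lists apart. The lists with 1 or 2 members also rest on few genes. In all, 22 of the 49 were in a list.

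Some members are gene models that share sequence with a neighbour, and their counts are uncertain for that reason. By GENCODE release 29, 7 members overlap another coding model on the same strand. The overlaps are ITGA1 with PELO, TMIGD3 with ADORA3, GCOM1 with MYZAP and POLR2M, LY6G6D with a joined LY6G6F-LY6G6D model, and 3 members known by clone names only. TMIGD3 was at 1.8 and 1.81 TPM with PMA, where ADORA3, the adenosine A3 receptor, was at 24.69 and 17.91 TPM. GCOM1 was at 3.02 and 3.1 TPM where MYZAP was at 8.77 and 11.89 TPM. One clone-named member, at 19.69 and 25.46 TPM with PMA, overlaps SEPT5 (27.77 and 35.87 TPM) and the platelet glycoprotein gene GP1BB (8.93 and 8.04 TPM). Without these 7, the other 42 members gave 42 higher against Ceefourin 2 alone and the same 2 higher and 5 lower against PMA. The remaining members without a role given above were ENKUR, METTL7B and SBK3, at 3.36 and 3.26, 1.89 and 1.77, and 1.8 and 1.21 TPM with PMA, and none of them was called between the 2 PMA groups.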

How the data were processed

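Messenger RNA libraries (TruSeq Stranded mRNA, read from both ends) of 8 MEG-01 samples were quantified by the authors. Per the submitters' processing notes, STAR 2.7, RSEM 1.3.1 and hg38 were used, with an annotation release not given in the sources used here. Gene-level expected counts, which the authors deposited without normalization, are RSEM's estimates. TPM values deposited beside them, per the file headers also RSEM's, were used to choose the members. Members, gene lists and tests were chosen with earlier results of these data known.

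Expected counts were rounded and tested with edgeR 4.0.16 in R 4.3.3. The steps were filterByExpr (17314 genes, all 49 members among them), TMM scaling (factors 0.92 to 1.08) and 1 quasi-likelihood fit with 4 group means over the 8 libraries, which left 4 residual degrees of freedom. The common biological coefficient of variation was 13.6%. Adjusted p is Benjamini-Hochberg over all tested genes, a gene was called below 0.05, and rose and fell refer to called genes. The script was tested on simulated data. Alternatives were DESeq2 1.42.0, limma 3.58.1 on log2(TPM + 0.1) or log2(TPM + 1), RLE scaling, other filters, a replicate block, left-out libraries and other limits for membership. Named members were the 12 highest with PMA, up to 4 for each list, the called members and those nearest the limits. Others are given to account for the set and were chosen after their values were seen. The values of 1 member are not reported here. Positions of genes are from GENCODE release 29 on GRCh38.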

Additional observations from a re-analysis of the deposited data

How the results depend on the processing

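Depth limits how low the untreated levels can be read, since 14 members had no count in either untreated library. With PMA, 22 members had a mean under 2 TPM. The number of members, 49, became 95 with an untreated limit of 0.2 TPM, 111 with a PMA limit of 0.5 TPM, 23 with a PMA limit of 2 TPM, 84 with the limits on group means and 14 with a count of 0 in both untreated libraries. The 30 members kept on with Ceefourin 2 became 30 to 35 under other limits. Against Ceefourin 2 alone, PMA plus Ceefourin 2 gave 48 or 49 calls under each planned tool, filter, scaling and left-out library, and 18 of the 18 members that pass stricter limits (0.05 and 2 TPM). Between PMA plus Ceefourin 2 and PMA, the 7 calls became 12 with DESeq2, 22 without a filter on low counts, 4 with limma on log2(TPM + 0.1), 17 with limma on log2(TPM + 1), 2 under the stricter limits and 1 to 6 with 1 library left out (4 and 1 without the first and second PMA library, 1 and 2 without the first and second of PMA plus Ceefourin 2, where the lone library is taken to vary like the other groups). With library 2 alone for both PMA groups, chosen after seeing the data, the count was 0, in a fit of 1 library against 1 that called 1 gene in all, and the fold changes of the 7 kept their direction. DESeq2 kept 6 of the 7, limma on log2(TPM + 0.1) kept 3 and the fit without a filter kept 7. The number called among all genes moved too. It was 159 higher and 158 lower in the main fit. In either direction it was 799 with DESeq2, 1211 without a filter, and 180 and 302 with limma at 0.1 and 1. Most fits with 1 library left out also called fewer of all genes than the main fit. The smaller counts of members in those fits are therefore not particular to the members. Against Ceefourin 2 alone, the other tools, filters and scaling called 8329 to 9838 of all genes. Between Ceefourin 2 alone and untreated, the 1 call became 4 with DESeq2, 2 with RLE scaling, 6 without a filter, 2 with a filter of 1 CPM in 2 libraries, 0 with either limma setting, 0 with the 4 compared libraries alone, 0 under the stricter limits, 0 with library 2 alone for both PMA groups, and 0 to 1 with 1 library left out. Among all genes, that comparison called 838 with DESeq2, 315 with RLE scaling, 1174 without a filter and 317 with the 1 CPM filter. It called 246 and 242 with limma at 0.1 and 1, and 36 with the 4 compared libraries alone. Replicate numbers are shared by all groups, and deviations of same-numbered libraries correlated at 0.14 to 0.36. The labels do not say whether same-numbered libraries share a culture or day, and the main fit has no term for the number. With a replicate block the calls were 49, 16 and 3 in the 3 comparisons, and the 7 were all among the 16. Among all genes the block called 11012, 1482 and 1430 in the same order. Direction was compared across settings for the 7 members called between the PMA groups and for TCHH between Ceefourin 2 alone and untreated. It was also compared for the 12 symbol-named members highest with PMA, in PMA plus Ceefourin 2 against Ceefourin 2 alone. None of these reversed under DESeq2, limma on log2(TPM + 0.1), the block or a left-out library. Other members and comparisons were not checked for direction. The causes of the differences between settings were not tested.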

Other observations

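Of the 61 genes that met the limits in the Ceefourin 2 libraries, 31 were not members. They were looked at after their values were seen and are given without a test. TNF, the inflammatory cytokine, was at 0 TPM in all 4 libraries without PMA, 0.37 and 0.43 TPM with PMA, and 1.44 and 1.36 TPM with PMA plus Ceefourin 2. VWF, von Willebrand factor of platelet granules, was at 0.86 and 0.77 TPM with PMA and 1.51 and 1.09 TPM with PMA plus Ceefourin 2, after 0 TPM in both untreated libraries. Others missed membership by a trace in untreated cells. The chemokine CCL4 was at 0.06 and 0.36 TPM untreated, 283.7 and 377.8 TPM with PMA, 69.7 and 120.4 TPM with PMA plus Ceefourin 2 and 0 and 0.06 TPM with Ceefourin 2 alone. GP1BB, a subunit of the platelet von Willebrand factor receptor, was at 0.28 and 0.2 TPM untreated, 8.93 and 8.04 TPM with PMA and 6.21 and 4.78 TPM with PMA plus Ceefourin 2.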
